A study of Mus musculus with 28 samples.

Results

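Microglia are the resident macrophages of the brain, and 10 genes used as their markers were followed through the striatum of 28 mice: Cx3cr1, P2ry12, Csf1r, Aif1, Tmem119, C1qa, C1qb, C1qc, Trem2 and Itgam. Each gene was read from the transcript cluster, the array's probe set for a gene, that carries its symbol and no other. All 10 had 1 such cluster, out of 19938 genes measured in that way. No probe of these clusters was among those masked by the authors, and none of the 10 genes lies on the chromosome that carries the donor segment. Itgam has 3 further clusters that share a symbol with Rpl35, which were not used here.

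Microglia live in the parenchyma and depend on signalling through Csf1r, the receptor of colony stimulating factor 1 and interleukin 34. They sense neurons through the fractalkine receptor Cx3cr1 and injury through the purine receptor P2ry12. In the brain they are the main source of complement C1q, a protein built from the chains of C1qa, C1qb and C1qc that tags synapses and debris for removal. Trem2 is a lipid receptor that signals through the adaptor Tyrobp. Itgam is the alpha chain (CD11b) of complement receptor 3, Aif1 encodes the calcium-binding protein Iba1, and Tmem119 is a membrane protein that separates microglia from other brain macrophages. The striatum consists mainly of spiny projection neurons, so microglial RNA is a minor share of the RNA measured.

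The arrays came from C57BL/6J (B6) mice and from B6.A/J congenic mice, which carry A/J alleles from 84 to 96 Mb of a chromosome, known from the study to be chromosome 11, on an otherwise B6 background. In batch 1, 6 heterozygous congenic mice were measured beside 6 B6 littermates, both groups being 41 to 68 days old. In batch 2, 8 homozygous congenic mice (52 to 57 days) were measured beside 8 B6 controls (61 to 63 days) from other litters, so genotype, age and breeding cannot be told apart there. Every mouse was drug-naive, left and right striatal punches were pooled within a mouse, and females and males were balanced in each group (3 and 3 in batch 1, 4 and 4 in batch 2). The congenic mice carry the whole segment, so no single A/J allele was compared. Median log2 values per array were between 7.47 and 7.54, and among 378 pairs of arrays 0 held identical values. The authors adjusted the batches to each other, so levels are compared within a batch.

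One array stood apart and touches several results. In B6 control 1 the mean of 15 hepatocyte genes was 11.20 log2, against 6.90 to 10.24 in the other 15 mice of batch 2. Albumin (Alb) was at 11.40, against a median of 10.72 and a range from 9.49 to 11.28 in the others. Genes of Kupffer cells, the macrophages of the liver, were also high there: the mean of 6 was 7.67, against 5.95 to 6.73. Vsig4, a complement receptor of Kupffer cells, was at 8.20 against a median of 4.82, and the lectin Clec4f was at 8.92 against 7.41. The mean of 10 spiny neuron genes was 10.86, below the 11.09 to 11.49 of the others. Results that rest on this array are given with and without it. In batch 1 the hepatocyte mean varied little, from 8.18 to 8.43.

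Promoters of 4 genes are shown because their genes form the pairs with the highest correlations between mice, described below: C1qb with C1qc, and P2ry12 with Itgam. Each line gives the 250 bases before a RefSeq transcript start in GRCm38.p6, read 5′ to 3′ on the gene's strand. Capitals mark GAGGAA or its reverse complement TTCCTC, the purine-rich core bound by PU.1 (Spi1), a transcription factor that macrophages need.
C1qb (chr4:136886201-136886450, minus strand): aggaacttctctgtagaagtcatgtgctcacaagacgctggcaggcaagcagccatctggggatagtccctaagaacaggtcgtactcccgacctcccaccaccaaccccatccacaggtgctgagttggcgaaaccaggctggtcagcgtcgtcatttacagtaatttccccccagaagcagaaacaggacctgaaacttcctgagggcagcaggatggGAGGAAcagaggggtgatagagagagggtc
C1qc (chr4:136892915-136893164, minus strand): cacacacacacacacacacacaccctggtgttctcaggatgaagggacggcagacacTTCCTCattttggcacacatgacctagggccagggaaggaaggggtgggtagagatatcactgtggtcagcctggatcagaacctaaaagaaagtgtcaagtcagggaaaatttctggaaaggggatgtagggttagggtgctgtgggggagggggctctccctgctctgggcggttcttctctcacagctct
P2ry12 (chr3:59262986-59263235, minus strand): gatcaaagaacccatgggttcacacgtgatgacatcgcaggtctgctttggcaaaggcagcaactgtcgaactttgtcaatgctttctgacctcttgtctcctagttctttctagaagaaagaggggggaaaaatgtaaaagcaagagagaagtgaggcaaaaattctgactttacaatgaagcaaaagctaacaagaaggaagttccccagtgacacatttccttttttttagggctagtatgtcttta
Itgam (chr7:128062390-128062639, plus strand): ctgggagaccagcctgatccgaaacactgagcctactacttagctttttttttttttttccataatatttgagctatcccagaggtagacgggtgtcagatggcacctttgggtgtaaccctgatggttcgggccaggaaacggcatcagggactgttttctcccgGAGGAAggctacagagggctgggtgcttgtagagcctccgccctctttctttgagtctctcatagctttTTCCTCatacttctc

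The C1qb window has 1 match, which begins 30 bases before the start, and C1qc has 1 match at 193 bases. Itgam has 2 matches, at 84 and 15 bases, and P2ry12 has none. A RefSeq window was matched for 7 of the 10 genes, and 5 of the 7 (Aif1, C1qb, C1qc, Itgam and Trem2) held GAGGAA on either strand. The same letters were in 23.3% of 32851 windows of this length and in at least 1 window of 25.9% of 27025 genes. The CCAAT box, searched on both strands, was in 2 of the 7, Cx3cr1 and Trem2, and in 33.8% of windows. TATAAA on either strand was in 0 of the 7 and in 12.4% of windows. None of the 3 motifs contains another, and a match is a run of letters, not a measured binding site.

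Levels of the 10 genes varied between mice by amounts on both sides of the median gene. The range over all 28 mice went from 0.28 log2 for Tmem119, which is 1.22-fold, to 0.64 log2 for C1qc, which is 1.56-fold. The SD between mice of 1 group, pooled over the 4 groups, was between 0.06 (Tmem119) and 0.16 log2 (C1qc), against a median of 0.10 over all genes. Cx3cr1, Itgam, C1qa, C1qb and C1qc lay above that median and the others below it. In whole tissue, fewer microglia and less RNA per microglial cell cannot be told apart.

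Among the receptors, Cx3cr1 had its lowest, median and highest values at 9.13, 9.37 and 9.42 log2 in littermates and at 9.26, 9.30 and 9.44 in heterozygous mice. The same values were 9.01, 9.35 and 9.46 in B6 controls and 9.15, 9.34 and 9.42 in homozygous mice. The 4 ranges overlapped almost entirely, with B6 control 1 as the single lowest mouse. P2ry12 was at 8.11, 8.26 and 8.28 in littermates, at 8.14, 8.29 and 8.34 in heterozygous mice, at 7.85, 8.21 and 8.28 in B6 controls and at 8.18, 8.27 and 8.31 in homozygous mice. In both batches the congenic median was the higher, while the ranges overlapped. Csf1r was at 9.47, 9.55 and 9.63 in littermates, 9.39, 9.56 and 9.65 in heterozygous mice, 9.36, 9.56 and 9.69 in B6 controls and 9.37, 9.57 and 9.61 in homozygous mice. Its 4 medians differed by less than the SD of any group.

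Trem2 was at 8.51, 8.66 and 8.73 log2 in littermates, 8.59, 8.68 and 8.79 in heterozygous mice, 8.46, 8.66 and 8.70 in B6 controls and 8.55, 8.70 and 8.79 in homozygous mice. The highest mouse of each batch was congenic and the lowest was B6, with wide overlap. Itgam was at 7.35, 7.57 and 7.73 in littermates, 7.33, 7.57 and 7.63 in heterozygous mice, 7.14, 7.56 and 7.71 in B6 controls and 7.46, 7.57 and 7.64 in homozygous mice. The medians were nearly equal, and the low ends came from B6 control 1 and from heterozygous congenic 4.

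Of the C1q chains, C1qc had the largest SD between mice of the 10 genes. C1qa was at 8.27, 8.45 and 8.61 log2 in littermates and at 8.15, 8.36 and 8.47 in heterozygous mice, and at 8.28, 8.43 and 8.54 in B6 controls and 8.23, 8.40 and 8.60 in homozygous mice. C1qb was at 9.85, 10.14 and 10.30 in littermates, 9.95, 10.03 and 10.29 in heterozygous mice, 9.87, 10.12 and 10.24 in B6 controls and 9.86, 10.04 and 10.28 in homozygous mice. For both genes the B6 median was above the congenic one in each batch, by less than the spread within a group. C1qc was at 9.06, 9.29 and 9.53 in littermates, 9.11, 9.33 and 9.57 in heterozygous mice, 9.08, 9.38 and 9.48 in B6 controls and 8.92, 9.24 and 9.47 in homozygous mice. Its order of medians differed between the batches, and all ranges overlapped.

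For Aif1 the values were 6.60, 6.70 and 6.90 log2 in littermates, 6.57, 6.65 and 6.80 in heterozygous mice, 6.58, 6.70 and 6.79 in B6 controls and 6.60, 6.70 and 6.98 in homozygous mice. For Tmem119 they were 8.50, 8.57 and 8.61 in littermates, 8.48, 8.49 and 8.66 in heterozygous mice, 8.38, 8.52 and 8.62 in B6 controls and 8.46, 8.55 and 8.60 in homozygous mice. Neither gene separated the groups. Ranges of a congenic group and its B6 group failed to overlap for 0 of the 10 genes in either batch. Over all genes this happened for 0.155% in batch 1 and 0.100% in batch 2.

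**Figure D1:**
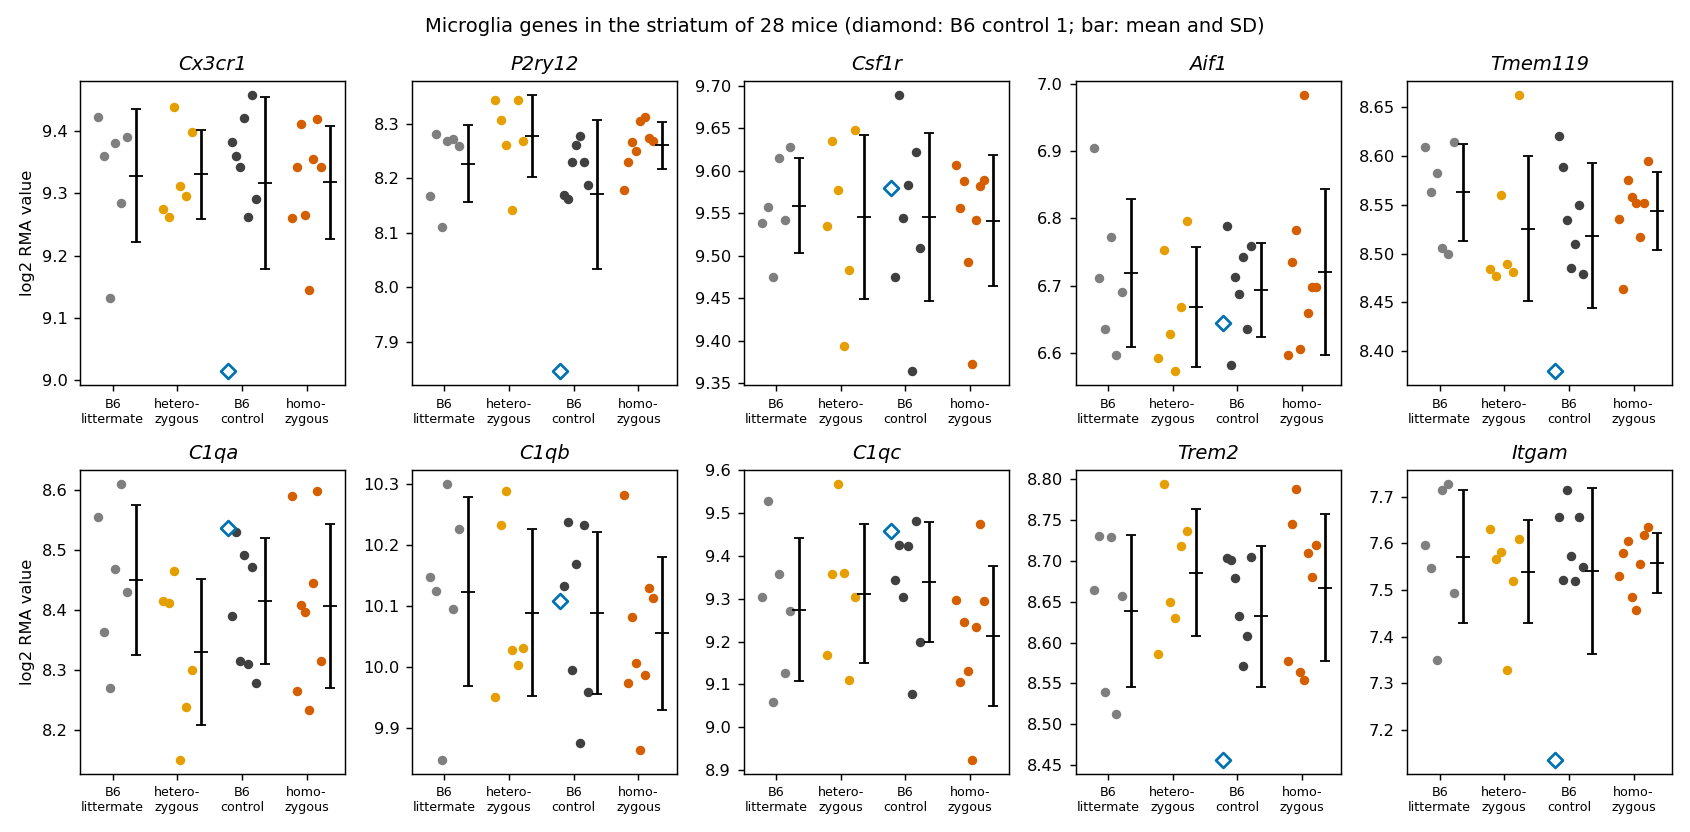
Log2 RMA value (y axis, a scale of its own in each panel) of each microglia gene in each of the 28 mice, by group (x axis), with bars for the group mean and SD and an open diamond for B6 control 1. The groups overlap in all 10 panels, and B6 control 1 is the lowest of the 28 mice for 5 genes (Cx3cr1, P2ry12, Tmem119, Trem2 and Itgam).

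The same few mice were low for many of the genes. Homozygous congenic 5 was the lowest of its group for 7 of the 10 (Cx3cr1, Csf1r, C1qa, C1qb, C1qc, Trem2 and Itgam), and had the highest Aif1 of all 28 mice, at 6.98. B6 littermate 3 was also the lowest of its group for 7, namely Cx3cr1, P2ry12, Csf1r, the 3 C1q genes and Itgam. B6 control 1 was lowest for 5, none of them a C1q gene or Csf1r: C1qa had its group's highest value there, at 8.54, and C1qc was at 9.46. Heterozygous congenic 4 was lowest for 5 and heterozygous congenic 3 highest for 4.

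The main comparison of the study, 14 carriers of the A/J segment against 14 B6 mice, asked which striatal genes differ with the segment. None of the 10 microglia genes passed (limma with batch and sex, Benjamini-Hochberg over 19938 genes). Over all genes 4 were called, which is 0.0201%. P2ry12 had the smallest p of the 10, with a difference of 0.07 log2 (SE 0.034, 95% interval 0.003 to 0.14), a 1.05-fold higher level in carriers (unadjusted p = 0.0416, adjusted p = 0.924 in limma). In the authors' deposited table its p is 0.0398. Of the 14 carriers 13 lay above the B6 mean of their batch. In batch 2 that mean includes B6 control 1, the lowest mouse for this gene at 7.85 log2. It was 1 of 10 members at an unadjusted p under 0.05, where 5.30% of all genes were, and without B6 control 1 the difference was 0.05 log2 (unadjusted p = 0.0678).

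The other genes differed by less relative to their spread. Trem2 differed by 0.04 log2 (95% interval -0.02 to 0.10), and 9 of 14 carriers lay above the B6 mean of their batch. C1qa differed by -0.06 (-0.15 to 0.04), with 10 of 14 carriers below. C1qc differed by -0.06 (-0.17 to 0.06) and C1qb by -0.03 (-0.13 to 0.07), each with 9 of 14 carriers below. Cx3cr1, Csf1r, Aif1, Tmem119 and Itgam differed by 0.01 or less in either direction. Over the 10 genes the median difference was -0.005 log2, with 3 above 0, while over all genes it was 0.009 with 59.2% above 0. The lowest bound of the 10 intervals was 0.888-fold (C1qc) and the highest 1.10-fold (P2ry12).

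Heterozygous mice were compared with their littermates in 1 model of the 4 group means and sex. No microglia gene was called, as was the case for 0% of all genes, and 0 of the 10 were at an unadjusted p under 0.05, against 3.69% of genes. C1qa had the largest difference, -0.12 log2 (SE 0.07, 95% interval -0.26 to 0.02, unadjusted p = 0.0991). P2ry12 differed by 0.05 (-0.06 to 0.16) and C1qc by 0.04 (-0.14 to 0.21).

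Homozygous mice were compared with B6 controls in the same model. The call was 0 of 10, against 0.00502% of all genes, and 0 of 10 were at an unadjusted p under 0.05, against 6.23%. C1qc differed by -0.13 log2 (SE 0.07, 95% interval -0.28 to 0.03, unadjusted p = 0.100), and by -0.10 without B6 control 1. P2ry12 differed by 0.09 (SE 0.05, -0.004 to 0.18, unadjusted p = 0.0610), and by 0.04 without B6 control 1, the lowest mouse for this gene. The 8 other genes lay between -0.03 and 0.04.

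Whether the homozygous and heterozygous effects differ was tested directly. None of the 10 passed, against 0% of all genes, and none was at an unadjusted p under 0.05, against 5.07%. The largest difference of effects was that of C1qc, -0.16 log2 (95% interval -0.39 to 0.07, unadjusted p = 0.159), followed by C1qa at 0.11 (-0.08 to 0.30, unadjusted p = 0.244).

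**Figure D2:**
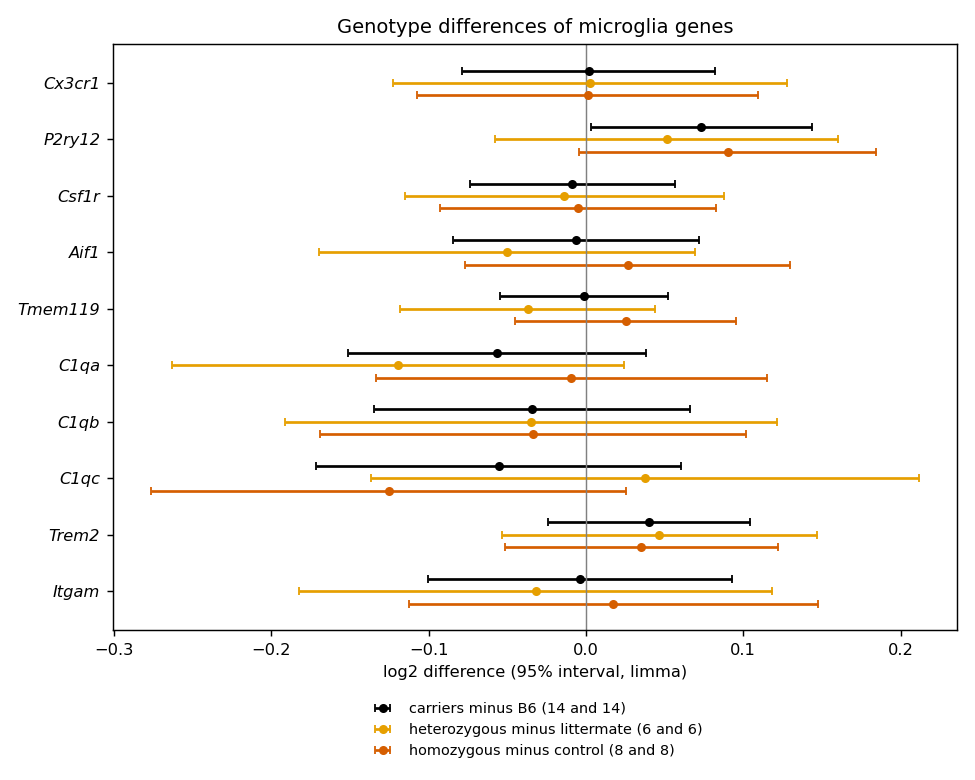
Log2 difference with its 95% interval from limma (x axis) for each microglia gene (y axis), for carriers against B6 mice (14 and 14), heterozygous mice against littermates (6 and 6) and homozygous mice against B6 controls (8 and 8). All intervals include 0 except that of P2ry12 in carriers against B6 mice, whose adjusted p is 0.924.

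Sex and age gave no calls among the 10 genes either. Between females and males 0 of 10 passed, against 0.0552% of all genes, and 0 of 10 were at an unadjusted p under 0.05, against 7.34%. Trem2 had the smallest p, with females lower by 0.06 log2 (a difference of -0.06, 95% interval -0.13 to 0.003, unadjusted p = 0.0620), and C1qc differed by -0.08 (-0.20 to 0.03). The median of the 10 was -0.04 with 8 below 0, beside 0.004 over all genes. Spiny neuron genes moved the same way, with 10 of 10 below 0 and a median of -0.13 (0 called, 7 at an unadjusted p under 0.05), as did oligodendrocyte genes, with 7 of 7 below 0 and a median of -0.10 (0 called, 0 at an unadjusted p under 0.05). Their part in the microglial values was not tested. With age, as a slope within groups, 0 of 10 were called (0% of all genes) and 0 of 10 were at an unadjusted p under 0.05 (4.95% of genes). Tmem119 came nearest, with a slope of -0.04 log2 per 10 days (95% interval -0.08 to 0.0006, unadjusted p = 0.0534). With single mice left out this slope was -0.05 to -0.02 (unadjusted p from 0.0199 to 0.466 in limma). It rests mainly on batch 1, since ages were 61 to 63 days in B6 controls and 52 to 57 days in homozygous mice.

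Genes that act with the 10 were taken from lists of other microglia markers, of ligands and partners of the microglial receptors, of further complement genes and of genes of activated microglia. For carriers against B6 mice, 0 of 19 other microglia markers passed, 0 of 10 ligands, 0 of 11 partners, 0 of 11 complement genes and 0 of 18 activation genes (limma). At an unadjusted p under 0.05 there was 1 marker and none of the other lists' genes. Among all genes these shares were 0.0201% called and 5.30% at an unadjusted p under 0.05. Tyrobp is in both the marker and the partner list. The list medians were, in this order, 0.0009, 0.01, 0.007, -0.02 and -0.0009 log2, beside 0.009 over all genes. The mean of the 11 complement genes was highest in B6 control 1, at 8.56 log2. Its SD between mice was 0.67 in B6 controls and 0.27 in homozygous mice, but 0.03 in littermates and 0.04 in heterozygous mice. The part of liver RNA in the complement values was not tested. Nearest among the markers was P2ry13, a purine receptor related to P2ry12, at 0.08 log2 (unadjusted p = 0.0339, adjusted p = 0.902 in limma), and then Lpcat2, an enzyme of lipid remodelling, at 0.05. Among ligands these were the cytokine Tgfb1 at 0.05 and Il34, a ligand of Csf1r, at 0.04. Among partners they were the receptor Tgfbr1 at 0.05 and the kinase Syk, which acts downstream of Tyrobp, at -0.04. Among complement genes they were the regulators Cd55 at -0.06 and Cr1l at -0.02, and among activation genes the chemokine Ccl4 at 0.08 and the cystatin Cst7 at 0.08. No member of any of these lists was called for any of the 6 comparisons.

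Within their groups, the genes varied together between mice. Deviations of each mouse from its group mean were correlated for the 45 pairs of genes over 28 mice, with permutation within groups (100000 resamples, 2-sided) and Benjamini-Hochberg adjustment over the 45 pairs. The median Pearson r was 0.28 with 35 of 45 above 0, while over 198751953 pairs of all genes it was 0.02. At an adjusted p under 0.05, 12 pairs were called, all with r above 0, and all 12 were above 0 within each batch. These signs are no separate test, since the pairs were called on the same mice. Of all 45 pairs, 40 were above 0 in batch 1 and 33 in batch 2. By Spearman's rho 10 were called, 9 of them the same. In batch 2 alone 12 were called and in batch 1 alone, with 12 mice, 0, while 8 there were at an unadjusted p under 0.05 (permutation). Pairs with r of at least 0.484, the lowest r among the called pairs, were 13 of 45 (28.9%), against 6.48% of all gene pairs. Without B6 control 1 they were 14 of 45 (31.1%), against 3.37%. All pairs share the arrays and their normalization, and each array's RNA mixture enters every value of a mouse.

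All 6 pairs among the C1q chains and Csf1r were called. C1qb and C1qc had r = 0.78 (rho 0.79, both permutation p = 1e-05, the smallest they can give, and both adjusted p = 0.00045). The r was 0.71 in batch 1 and 0.84 in batch 2, and 0.72 without the 2 mice farthest from the median of C1qb. The mice low for one were low for the other: B6 littermate 3 was at 9.85 for C1qb and 9.06 for C1qc, B6 control 6 at 9.87 and 9.08, and homozygous congenic 5 at 9.86 and 8.92. Heterozygous congenic 3 was high for both, at 10.29 and 9.57. The 2 genes, with C1qa, are next to each other on chromosome 4, in the order C1qb, C1qc, C1qa, between Ephb2 and Epha8. Of 19937 other genes, C1qc had the highest correlation with C1qb, and C1qb was in place 4 for C1qc.

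C1qa and C1qb had r = 0.68 (rho 0.66, permutation p = 0.00035 and 0.00061, adjusted p = 0.00525 and 0.00915), and 0.64 without the 2 mice farthest on C1qa. C1qa and C1qc had r = 0.54 (rho 0.55, permutation p = 0.00695 and 0.00468, adjusted p = 0.0347 and 0.0409). This call ended without B6 littermate 3, B6 control 6 or 8, heterozygous congenic 3 or 5 or homozygous congenic 5 or 7, each left out alone, with r from 0.47 to 0.64 over all mice left out. Its r was 0.17 in batch 1 and 0.82 in batch 2. Csf1r lies on another chromosome, 18, and followed the C1q genes nearly as closely. With C1qb it had r = 0.73 (rho 0.74, permutation p = 2e-05 and 6e-05, adjusted p = 0.00045 and 0.00135), 0.64 without the 2 mice farthest on Csf1r. With C1qc r was 0.62 (rho 0.60, adjusted p = 0.00855 and 0.0168) and with C1qa 0.59 (rho 0.51, adjusted p = 0.00855 and 0.0442), or 0.44 and 0.52 without those 2 mice. Of 19937 genes, C1qb was in place 8 for Csf1r and in place 10 for C1qa.

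All 6 of these calls were also made without B6 control 1, where r was 0.78 for C1qb and C1qc, 0.73 for Csf1r and C1qb, 0.69 for C1qa and C1qb, 0.62 for Csf1r and C1qc, 0.59 for Csf1r and C1qa and 0.52 for C1qa and C1qc. Hepatocyte genes moved with these 4 genes: their mean had r = 0.49 with C1qa, 0.41 with C1qb, 0.41 with C1qc and 0.38 with Csf1r over 28 mice. Without B6 control 1 these were 0.47, 0.49, 0.39 and 0.42. Kupffer cells also make C1q and carry Csf1r. The mean of the Kupffer genes had r = 0.34, 0.18, 0.26 and 0.20 with the same genes, in that order, over 28 mice. The part of liver RNA in the correlations among the 4 genes was not tested. In batch 1, with a hepatocyte mean from 8.18 to 8.43, r was 0.71 for C1qb and C1qc, 0.60 for Csf1r and C1qb, 0.54 for C1qa and C1qb, 0.52 for Csf1r and C1qa, 0.33 for Csf1r and C1qc and 0.17 for C1qa and C1qc. In batch 2 the last 2 were 0.83 and 0.82.

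Another 5 called pairs were among Cx3cr1, Itgam, Trem2, P2ry12 and Tmem119, and 1 of the 5, Cx3cr1 with Trem2, was also called without B6 control 1. P2ry12 and Itgam had r = 0.75 (rho 0.38, permutation p = 0.00286 and 0.0570, adjusted p = 0.0161 and 0.171). Without B6 control 1, the lowest mouse for both, r was 0.49 and the pair was no longer called, and without the 2 mice farthest on P2ry12 it was 0.39. Leaving out B6 littermate 3 or heterozygous congenic 4 also ended the call, and r was 0.49 to 0.79 over all single mice left out. Cx3cr1 and Itgam had r = 0.71 (rho 0.51, permutation p = 0.00122 and 0.00941, adjusted p = 0.00855 and 0.0442), with 0.41 in batch 1 and 0.87 in batch 2. Without B6 control 1 this r was 0.50 with an adjusted p of 0.0502. Cx3cr1 and Trem2 had r = 0.63 (rho 0.40, permutation p = 0.00117 and 0.0430, adjusted p = 0.00855 and 0.161) and kept the call when any 1 mouse was left out, with r = 0.51 without B6 control 1.

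The remaining pairs among these genes were less stable. Cx3cr1 and Tmem119 had r = 0.51 (rho 0.52, both p from permutation, adjusted p = 0.0472 and 0.0442) and 0.30 without B6 control 1. Trem2 and Itgam had r = 0.50 (rho 0.34, adjusted p = 0.0472 and 0.277) and 0.31 without it. These calls were lost for 21 and 22 of the 28 mice left out singly, with r from 0.30 to 0.59 and from 0.31 to 0.65. Cx3cr1 and P2ry12, at r = 0.54 with an adjusted p of 0.121, had r = 0.11 without B6 control 1. In that mouse Cx3cr1 was at 9.01 against a median of 9.34 in the other 15 mice of batch 2, P2ry12 at 7.85 against 8.25, Tmem119 at 8.38 against 8.55, Trem2 at 8.46 against 8.68 and Itgam at 7.14 against 7.57.

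The last of the 12 called pairs links both groups of genes. Cx3cr1 and C1qc had r = 0.48 over 28 mice (rho 0.54, permutation p = 0.0119 and 0.00545, adjusted p = 0.0472 and 0.0409) and 0.76 without that mouse (adjusted p = 0.00105). Over all single mice left out its r was 0.40 to 0.76, and the call was lost for 20 of 28. Cx3cr1 and C1qb went from 0.48, which was not called, to 0.63 (adjusted p = 0.00934), and Cx3cr1 and Csf1r from 0.40 to 0.58 (adjusted p = 0.00934). Csf1r and Trem2 went from 0.40 to 0.49 (adjusted p = 0.0425), Csf1r and Itgam from 0.29 to 0.48 (adjusted p = 0.0425) and C1qa and Itgam from 0.21 to 0.49 (adjusted p = 0.0475). Without that mouse 13 pairs were called, of which 8 are among the 12 called over all mice. P2ry12 then had no called pair (adjusted p = 0.0871 with Itgam).

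Aif1 had the lowest mean level of the 10 genes, 6.70 log2, below the median of every array (7.47 to 7.54). It had no pair called by Pearson's r. Its r with C1qa, C1qb, C1qc and Csf1r was from -0.30 to -0.19 over all mice, but the direction turned between the batches. In batch 1 these 4 were 0.21, 0.35, 0.26 and 0.52, and in batch 2 they were -0.67, -0.63, -0.62 and -0.69. Its highest r was 0.34, with Trem2, 0.73 in batch 1 and 0.08 in batch 2. By rho this pair was called (0.52, permutation p = 0.00982, adjusted p = 0.0442), and without the 2 mice farthest on Aif1 its r was 0.67. Trem2 was in place 1778 among 19937 genes by correlation with Aif1. The closest of the 10 genes to Tmem119, Cx3cr1, was in place 281.

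**Figure D3:**
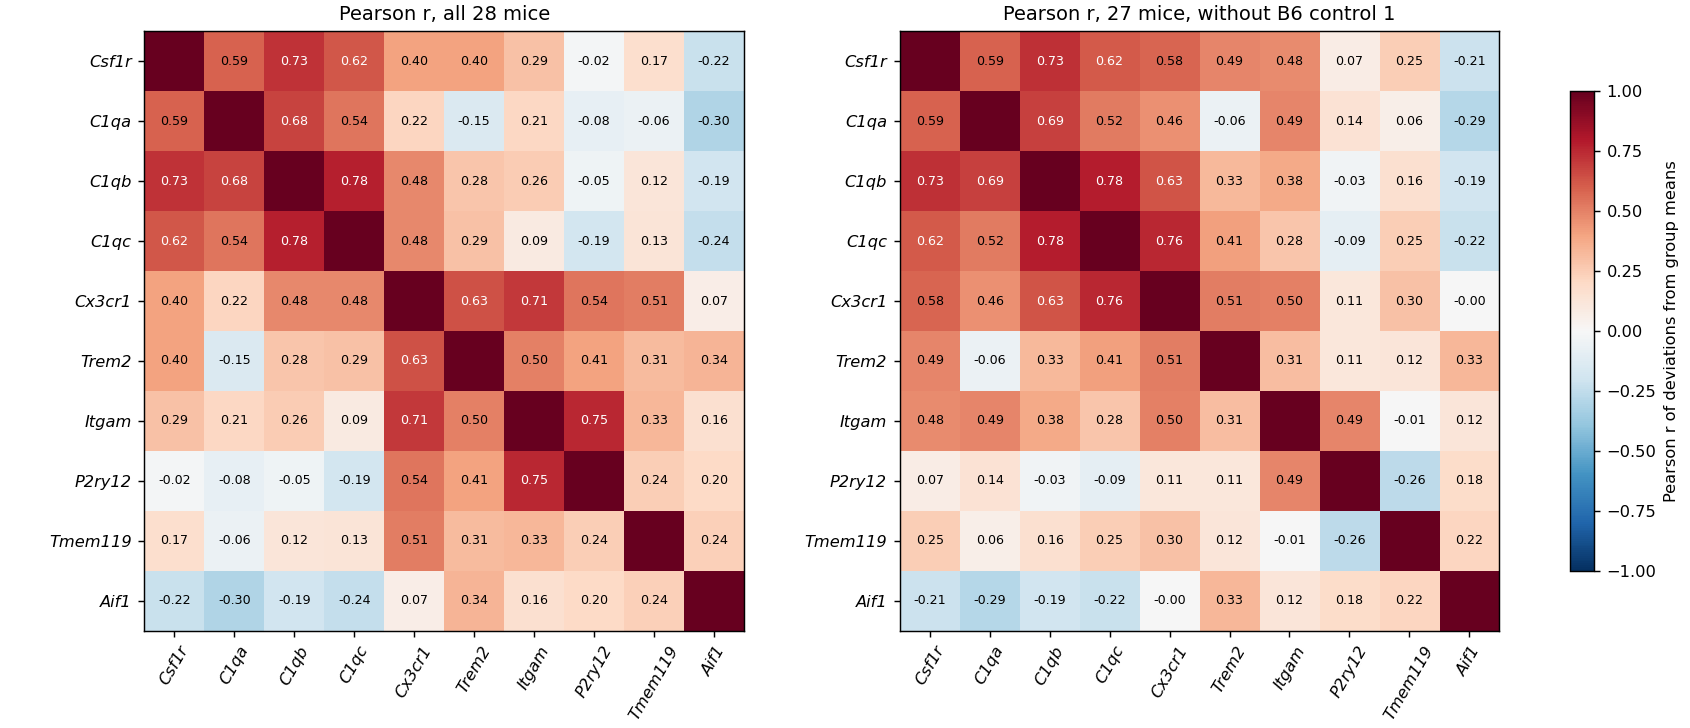
Pearson r of deviations from group means for each pair of the 10 microglia genes (rows and columns, colour scale from -1 to 1), over all 28 mice and over 27 mice without B6 control 1. Csf1r and the C1q genes keep r from 0.52 to 0.78 in both panels, while P2ry12 and Itgam go from 0.75 to 0.49 and Cx3cr1 and C1qc from 0.48 to 0.76.

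**Figure D4:**
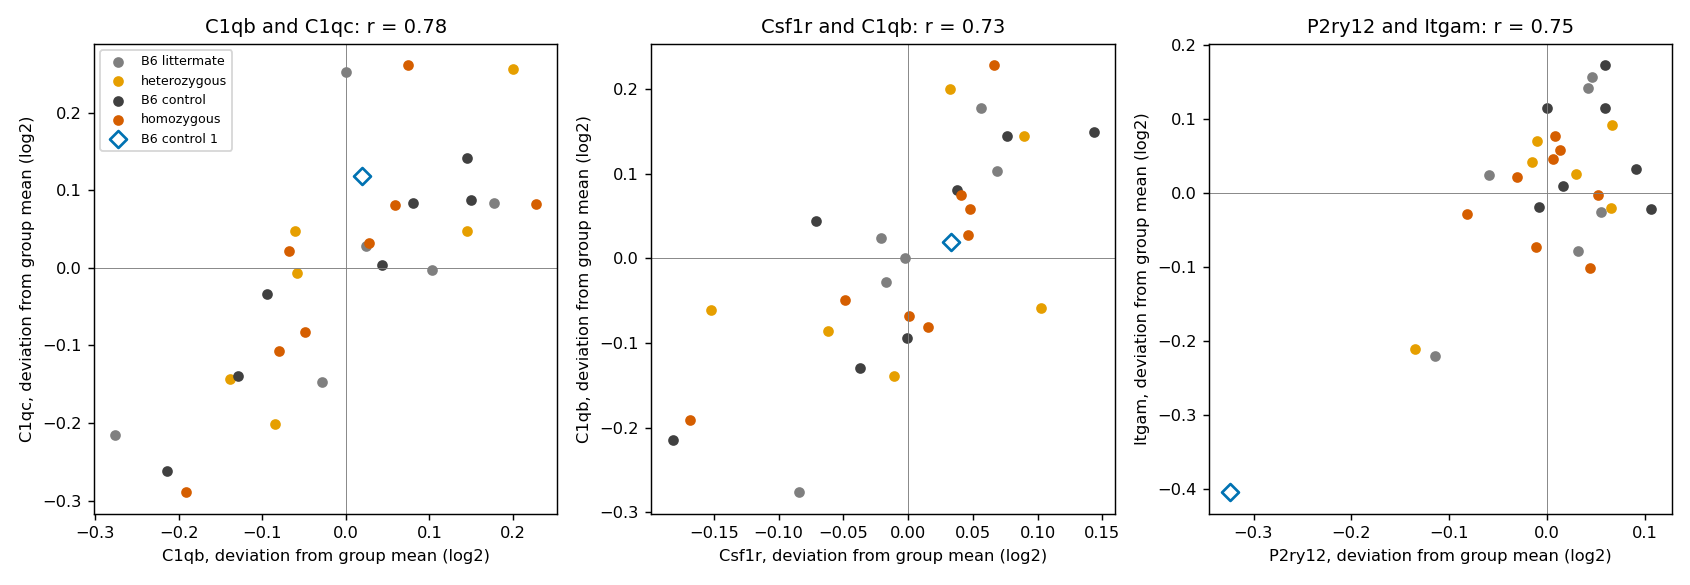
Deviation from the group mean (log2) of 1 gene against another for 3 pairs, with 1 point per mouse coloured by group and an open diamond for B6 control 1. For C1qb with C1qc and Csf1r with C1qb this mouse lies within the cloud, and for P2ry12 with Itgam it lies alone at the low end.

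The 10 genes were scaled to unit SD and averaged, and every other gene was set against that mean over the 28 mice, as a description with no test. The 10 most alike were the magnesium transporter Slc41a1 (r = 0.82), Laptm5, a lysosomal membrane protein of blood-lineage cells (0.78), Slc35c2 (0.75), the astrocyte receptor Gpr37l1 (0.75), Tmem158 (0.75), the glycolytic enzyme Aldoa (0.75), the neurotensin receptor Ntsr2 (0.75), Eral1 (0.75), the nitric oxide synthase of neurons Nos1 (0.74) and Atxn7l1 (0.74). Laptm5 is the only one of them on the list of other microglia markers. Without B6 control 1 it was at 0.74 and Slc41a1 at 0.76.

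Of the other microglia markers, 18 of 19 had r above 0 with the mean of the 10, with a median of 0.36, beside -0.01 over 19928 other genes. Without B6 control 1 the medians were 0.30 and -0.03. The mean of the 19 had r = 0.81 with the mean of the 10, 0.77 in batch 1 and 0.86 in batch 2, and 0.78 without B6 control 1. Some genes are singled out after their values were seen. The adhesion ligand Selplg was at 0.72, the secreted protein Olfml3 at 0.63 and the purine-cleaving enzyme Entpd1 at 0.58. Tyrobp was at 0.35, and at 0.67 without B6 control 1. The exception over all mice was Ptprc (CD45), at -0.19, or 0.19 without that mouse. Without it Gpr34, at 0.08 over all mice, was the only marker below 0, at -0.21. The complement list had a median of -0.14 with 2 of 11 above 0, among them the C5a receptor C5ar1 at 0.69. The activation list had a median of -0.06 with 7 of 18 above 0, among them the lysosomal protein Cd68 at 0.67. These medians were 0.18 and 0.11 without B6 control 1.

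Genes of some other cell types had values well above 0 too. Spiny neuron genes had a median r of 0.54 with the mean of the 10 and 10 of 10 above 0, and oligodendrocyte genes 0.50 with 7 of 7. Without B6 control 1, which was low for both the spiny neuron list and the microglial mean, these medians were 0.34 and 0.30. Hepatocyte genes had a median of -0.02 over all mice and 0.29 without B6 control 1, and Kupffer genes -0.29 and 0.12. In the list means, the spiny neuron list had r = 0.13 in batch 1 and 0.79 in batch 2, where the other microglia markers had 0.77 and 0.86. How far the makeup of the dissected tissue enters the covariation was not tested.

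**Figure D5:**
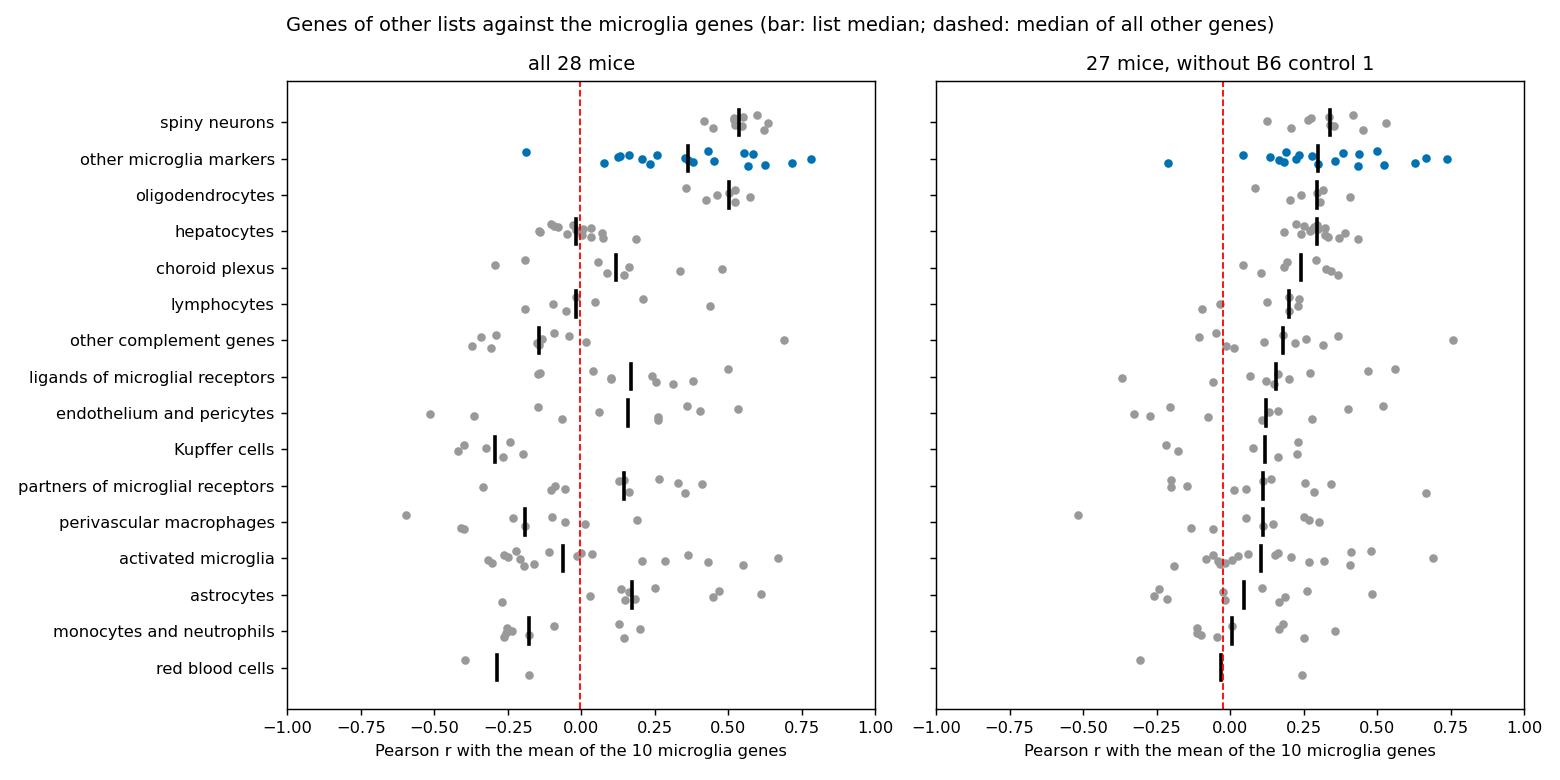
Pearson r with the mean of the 10 microglia genes (x axis) for each gene of 16 lists (rows, 1 point per gene, bar at the list median, dashed line at the median of all other genes), over 28 mice and over 27 mice without B6 control 1. Other microglia markers have medians of 0.36 and 0.30, and the spiny neuron list has 0.54 and 0.34.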

How the data were processed

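Striatal RNA of 28 mice was measured on 28 Mouse Gene 1.0 ST arrays. The deposited values are log2 RMA summaries. The submitters' processing notes name Affymetrix Expression Console and RMA, without versions. Probes at coding differences between B6 and A/J were masked (145 probes of 120 probesets) and the 2 batches adjusted with ComBat, per the deposited notes. RMA draws arrays to 1 distribution, and ComBat removes level differences between batches. The authors' p-values come from a t-test of 14 against 14 arrays, per the deposited notes.

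The values were used as deposited. Of 35556 clusters, 21789 had 1 gene symbol in the platform annotation, 1621 several and 12146 none. The single-symbol cluster with the highest mean was taken, which left 19938 genes. limma 3.58.1 in R 4.3.3 (lmFit and eBayes, 2-sided, Benjamini-Hochberg over all genes, threshold 0.05) tested carriers against B6 mice with batch and sex as terms, and the other comparisons in a model of 4 group means and sex, to which age was added for its slope. Correlations used Python 3.11.15 and scipy 1.17.1. The limma fits and the correlations were tested on simulated data. The number of arrays limits the precision, and replicates are separate mice.

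The 10 genes and the 16 lists were chosen with earlier results of these data known. Named are all 10 genes, the 2 genes of smallest p of each list for carriers against B6 mice, any called list gene, the 10 most alike genes and Alb. Promoter windows come from RefSeq (GRCm38.p6), and no window of C1qa, Csf1r or Tmem119 was used here. Alternatives were other normalizations, models, clusters and single mice left out.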

Additional observations from a re-analysis of the deposited data

Results flagged for a closer look

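Each of the 10 genes was checked in each of the 4 groups for a mouse whose gap to its nearest neighbour was large for the group's range (Dixon's 95% value). Of 40 checks 4 stood out, where chance gives about 1 in 20. The 4 are not independent, since 3 are in the same array, B6 control 1. Cx3cr1 was at 9.01 log2 in B6 control 1, below the next B6 control at 9.26. P2ry12 was at 7.85 in the same mouse, with the next at 8.16, and Itgam at 7.14, with the next at 7.52. Itgam was at 7.33 in heterozygous congenic 4, with the next heterozygous mouse at 7.52. In B6 control 1 the hepatocyte mean was 11.20 and the spiny neuron mean 10.86, and their part in these 3 values was not tested. No difference between the homozygous and heterozygous effects was called for the 10 genes.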

How the results depend on the processing

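For the 6 comparisons by genotype, sex and age, 0 of the 10 genes were called in any of the 35 to 39 alternatives run for each. Aif1 and Itgam were not tested in the alternative limited to genes above the median level. The genes called ranged from 0 to 7 for carriers against B6 mice, out of 19938 genes, or 9969 in that alternative. P2ry12 stayed above 0 for carriers in every alternative run. The main models did not pair mice by replicate number. Deviations of same-numbered mice had r over 0.1 in 3 of 6 littermate and heterozygous pairs (r from -0.07 to 0.17). In control and homozygous mice this held for 6 of 8 pairs (r from -0.52 to 0.69), so a dependence between same-numbered mice is not excluded there. With the replicate number as a block, 0 of the 10 genes were called in each comparison, and P2ry12 in carriers stayed at 0.07 log2 (adjusted p = 0.880 in limma). The number of called pairs of genes was 12 over all mice and 8 to 13 with 1 mouse left out, with the sets of pairs differing. It was 0 in batch 1 alone, with 12 mice, where 8 pairs were at an unadjusted p under 0.05 (permutation test), and 12 in batch 2 alone. It was 8 after also removing sex means. The median r of the 45 pairs ranged from 0.13 in batch 2 to 0.41 in batch 1. Differences much below 0.1 log2 are within the intervals that 28 arrays allow, and for some genes larger ones are too. The limma intervals reached -0.17 log2 for C1qc in carriers and -0.28 for C1qc in homozygous mice. In heterozygous mice they reached -0.26 for C1qa and 0.21 for C1qc. For the difference of genotype effects, that of C1qc reached -0.39. Of simulated differences of 0.2 log2, 78% were recovered for carriers. The share was 41% for heterozygous mice, 48% for homozygous mice and 11% for the difference of effects.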

Other observations

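Macrophages and leukocytes other than microglia were read from lists of their own. For carriers against B6 mice no gene of these lists passed (limma, adjusted over 19938 genes). Chil3, a chitinase-like protein of myeloid cells, had the smallest p of all listed genes, at -0.21 log2 (unadjusted p = 0.00505, adjusted p = 0.839), and the neutrophil granule gene Ngp was at 0.06. Among perivascular macrophage genes Ms4a7 was at -0.07 and F13a1 at 0.05. Among lymphocyte genes Cd3g was at -0.08 and Cd8a at 0.06, and among Kupffer genes Cd5l was at -0.11 and C6 at 0.04.

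The lists of other tissue components gave 0 calls as well, and Chil3 was the only gene of all 11 lists here at an unadjusted p under 0.05. Over all genes 0.0201% were called and 5.30% were at an unadjusted p under 0.05. The values were 0.34 for Apoa1 and 0.38 for Fgg (hepatocytes), -0.04 for Alas2 and -0.02 for Epb42 (red blood cells), -0.09 for Tac1 and 0.03 for Drd1 (spiny neurons) and 0.07 for Aqp4 and 0.04 for Slc1a2 (astrocytes). They were 0.08 for Mog and 0.04 for Cldn11 (oligodendrocytes), -0.06 for Abcb1a and -0.05 for Pdgfrb (endothelium and pericytes) and 0.04 for Folr1 and 0.06 for Aqp1 (choroid plexus).

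Between females and males, other genes of microglia and brain macrophages came nearer to the threshold than the 10 did, and none passed. These genes were chosen after their values were seen. Entpd1 differed by -0.17 log2 in females minus males (unadjusted p = 0.00135, adjusted p = 0.522), Cd68 by -0.17 (adjusted p = 0.574) and the chemokine Ccl3 by -0.14 (adjusted p = 0.578). Cd68 and Ccl3 are on the activation list, where 12 of 18 genes were above 0 and the median was 0.03. Cd209f, a lectin of brain border macrophages, differed by 0.19 (adjusted p = 0.522). Of 19 other microglia markers 15 were below 0, while 53.2% of all genes were above 0. At an unadjusted p under 0.05 there were 5 of the 19, 4 lower and 1 higher in females, against 7.34% of all genes.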
